A study of Mus musculus with 11 samples.

Results

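Cytochrome P450 genes were examined in the livers of mice with and without Gsr, the gene of glutathione reductase, which returns oxidised glutathione to its reduced form. P450 genes were taken as those with a probe set that the platform annotation gives exactly 1 symbol, with that symbol starting with Cyp and a digit. This gave 63 genes on 78 probe sets, of 12393 genes with 1 symbol on the array. Where a gene had several, the probe set of highest mean stood for it. A level above 4 on the log2 scale in at least 5 samples was reached by 37 of the 63 genes, called measured from here on. Another 8 passed that level in 1 to 4 samples, and 18 in none.

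Liver RNA came from 5 wild-type (WT) and 6 Gsr-null male mice of the C57BL/6J background, 15 to 20 weeks old. Livers were taken between 2 and 4 in the afternoon, and each sample was hybridised to 1 Affymetrix array. The labels give the genotype as Gsr-null and do not describe the allele. The labels call the samples biological replicates and name no batch. Samples are numbered here by the replicate number in their titles, 1 to 5 and 1 to 6; a second number in the Gsr-null titles runs from 4 to 9 and was not used.

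P450 enzymes are heme proteins that insert 1 atom of molecular oxygen into their substrates, with electrons that P450 reductase or, in mitochondria, ferredoxin passes on from NADPH. Families 1 to 3 handle mainly drugs, toxicants and steroids, and the receptors AHR, CAR and PXR induce many of them. Family 4 hydroxylates fatty acids and eicosanoids, partly under PPAR-alpha, and a further set of families makes bile acids and oxysterols from cholesterol. Several mouse liver P450 genes differ between the sexes, which depends on the pattern of growth hormone release.

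Both genotypes had the transcripts of liver. The 8 measured hepatocyte markers, among them Alb and Ttr, had a mean level between 13.54 and 13.88 in WT and between 13.62 and 13.90 in Gsr-null samples. Gsr was 6.91, 6.87, 6.79, 6.62 and 6.93 in WT samples and between 4.71 and 5.29 (median 5.02) in Gsr-null samples. Gsr fell by 1.83 (SE 0.123, limma adjusted p = 1.82e-05), with no overlap of the groups. Of 10 measured acute phase genes 10 were higher on average in Gsr-null livers, beside 42.7% of all tested genes, and 0 passed the adjusted p of 0.05. Lcn2, an acute phase protein that binds siderophores, was highest in Gsr-null samples 1 and 6, at 13.03 and 12.58, and lowest among Gsr-null samples in sample 4, at 5.90. The neutrophil genes S100a8 and S100a9 were 6.63 and 6.50 in Gsr-null sample 1 and between 2.53 and 3.63 in all other samples. Of the other neutrophil genes on the array, Mpo was lowest of all in Gsr-null sample 1, and Ngp was highest. Elane and Camp lay inside the range of the other samples. Mpo, Ngp, Elane and Camp stayed below 4 in every sample. Control probe sets at the 3′ and 5′ ends of Gapdh and Actb parted the arrays into a low set (WT 2 and 4, Gsr-null 1, 2 and 3) and a high set (WT 1, 3 and 5, Gsr-null 4, 5 and 6). Gsr-null samples 4 and 5 stood apart from the rest in several P450 genes, so values that rest on them are given with and without them.

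Those genes include Cyp2b9, Cyp2b13 and Cyp2c38, whose upstream sequences are shown beside that of Cyp2b10. Cyp2b10 lies in the same cluster on chromosome 7 as the near-copies Cyp2b9 and Cyp2b13. The near-copies were highest of all in Gsr-null samples 4 and 5. Cyp2b10 was also highest among Gsr-null samples in samples 4 and 5, at 5.79 and 5.62, but was highest of all in WT sample 2, at 7.65. The choice of these 4 followed from their values. The sequences are the 250 bases before the RefSeq gene start on assembly GRCm38.p6, read 5′ to 3′ on the gene's strand. Cyp2b9 lies at chr7:26173159-26173408 on the plus strand, Cyp2b13 at chr7:26061245-26061494 on the plus strand, Cyp2b10 at chr7:25897408-25897657 on the plus strand and Cyp2c38 at chr19:39463076-39463325 on the minus strand. Capitals mark the nuclear receptor half-site AGGTCA.

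Cyp2b9: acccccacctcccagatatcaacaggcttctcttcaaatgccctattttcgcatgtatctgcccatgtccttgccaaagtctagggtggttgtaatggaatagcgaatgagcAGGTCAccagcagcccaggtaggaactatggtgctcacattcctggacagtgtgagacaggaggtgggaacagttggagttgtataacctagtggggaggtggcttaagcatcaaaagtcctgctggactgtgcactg

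Cyp2b13: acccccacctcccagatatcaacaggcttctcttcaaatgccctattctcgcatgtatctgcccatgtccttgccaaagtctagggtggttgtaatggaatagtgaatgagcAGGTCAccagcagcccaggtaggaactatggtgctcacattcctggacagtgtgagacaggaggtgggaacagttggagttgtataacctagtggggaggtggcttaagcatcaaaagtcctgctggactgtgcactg

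Cyp2b10: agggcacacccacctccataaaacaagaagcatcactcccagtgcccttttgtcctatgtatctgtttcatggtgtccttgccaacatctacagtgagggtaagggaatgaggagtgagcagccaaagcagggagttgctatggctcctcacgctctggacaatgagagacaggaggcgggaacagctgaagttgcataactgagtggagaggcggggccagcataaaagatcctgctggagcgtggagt

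Cyp2c38: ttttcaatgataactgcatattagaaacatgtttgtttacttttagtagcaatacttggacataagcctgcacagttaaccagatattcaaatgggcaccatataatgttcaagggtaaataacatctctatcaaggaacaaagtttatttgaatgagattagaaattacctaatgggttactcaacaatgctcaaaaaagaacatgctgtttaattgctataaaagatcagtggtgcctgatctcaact

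Cyp2b9 and Cyp2b13 were identical at 248 of 250 positions (99.2%). Their differences, counted from 1 at the 5′ end with the base of Cyp2b9 first, were T48C and C104T. Both carried AGGTCA 138 to 133 bases before the start. Cyp2b10 matched Cyp2b9 at 68.8% of aligned positions and had no AGGTCA in this window. Cyp2c38 matched the Cyp2b genes at 44.0% to 45.9% of aligned positions. It carried TATAAA 31 to 26 bases before the start. Over such windows of 250 bases, read on both strands, AGGTCA was found in 13.8% of 27025 promoters and in 11 of the 46 P450 promoters in the table (23.9%). The TATA box, searched as TATAAA, was in 13.0% of all promoters and in 17 of the 46 (37.0%). The AHR core GCGTG was in 28.2% of all promoters and 23.9% of the P450 promoters, and the STAT5 site TTCNNNGAA in 7.18% and 4.35%. These shares describe letters in a window and were not tested.

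None of the measured P450 genes passed the test between genotypes. limma called 0 of 37 at an adjusted p under 0.05, beside 26 of 6021 tested genes, or 0.432%. At an unadjusted limma p under 0.05 there were 6 of 37 P450 genes, beside 8.79% of all tested genes. The 6 were Cyp2c23, Cyp2c37, Cyp3a13 and Cyp4b1 on the lower side in Gsr-null livers, where all tested genes gave 5.45%, and Cyp3a25 and Cyp4a12a on the higher side, where all tested genes gave 3.34%. Cyp2c23 was the only measured P450 gene whose groups did not overlap, which held for 1.51% of all tested genes. In these whole-liver samples, fewer cells that express a gene and less RNA per cell cannot be told apart.

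The median difference over the 37 genes, Gsr-null minus WT, was -0.05 on the log2 scale, beside -0.03 over all tested genes. Differences ran from -1.96 for Cyp4a14 to 0.57 for Cyp4a12a, with 13 positive (35.1%) and 24 negative, beside 42.7% positive over all tested genes, and 19 of the 37 lay within 0.2 of 0. The 95% interval of the difference lay inside -1 and 1 for 26 genes, so that a change larger than that in either direction was outside the interval for these genes only. Within the low and the high control set the median P450 difference was -0.03 and -0.10.

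**Figure D1:**
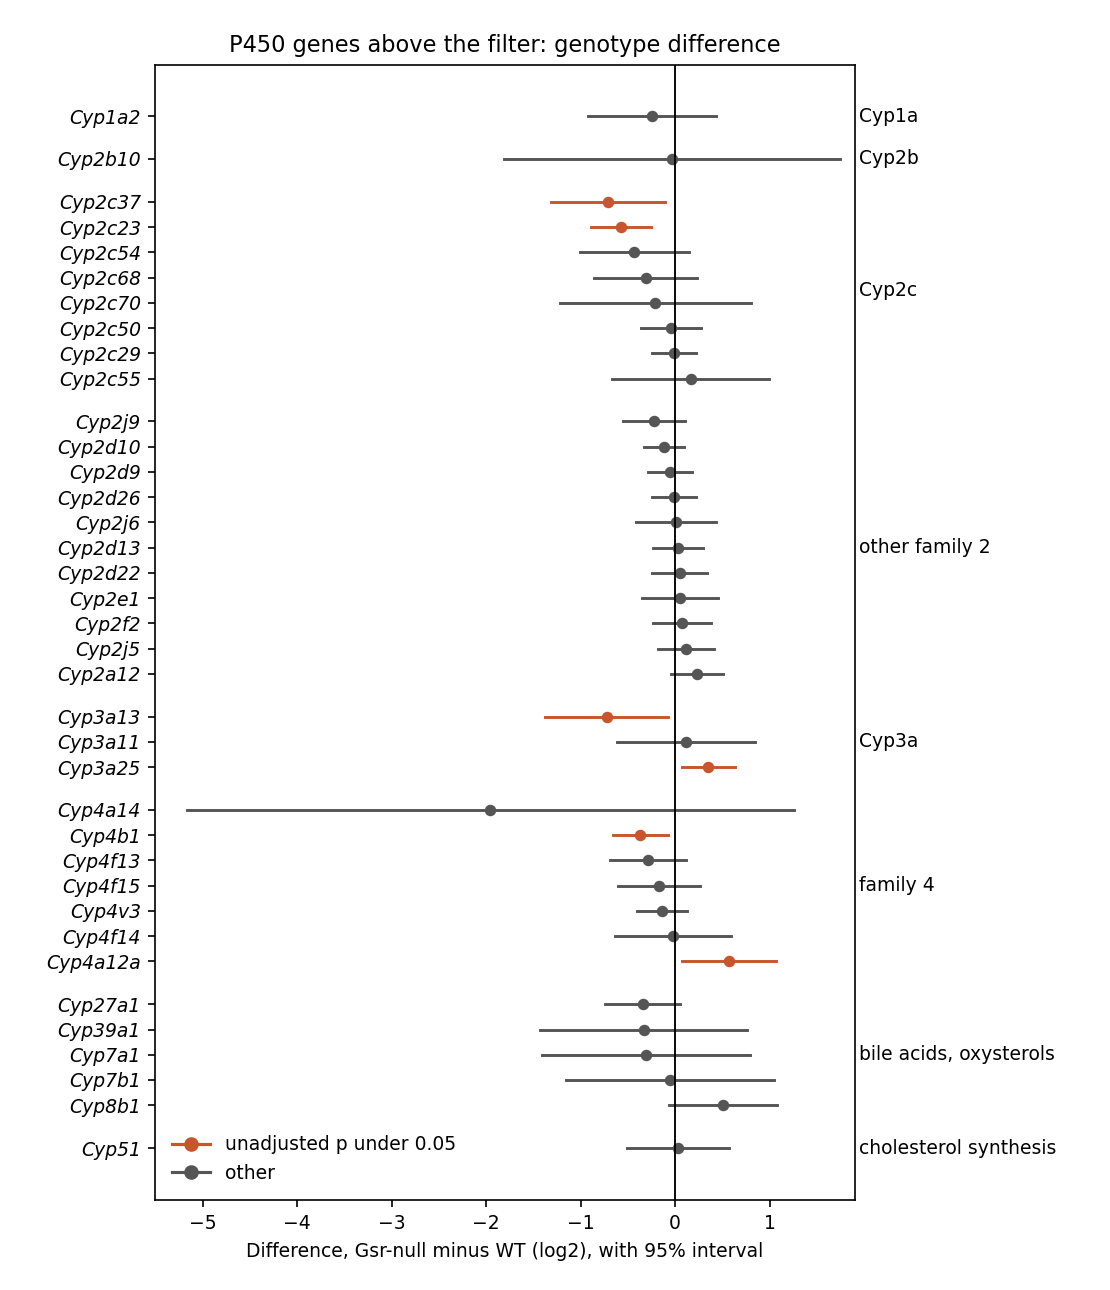
Difference between Gsr-null (n = 6) and WT (n = 5) livers for the 37 measured P450 genes, grouped by role, on the log2 scale; points are limma estimates and bars their 95% intervals. The 6 genes in orange had an unadjusted p under 0.05, and Cyp4a14 and Cyp2b10 have the widest intervals.

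The heat map of single livers shows the P450 genes that passed 4 in at least 1 sample. Most rows are pale in both genotypes. Strong colours stand in Gsr-null columns 4 and 5, and in the rows of Cyp4a14 and Cyp2b10.

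**Figure D2:**
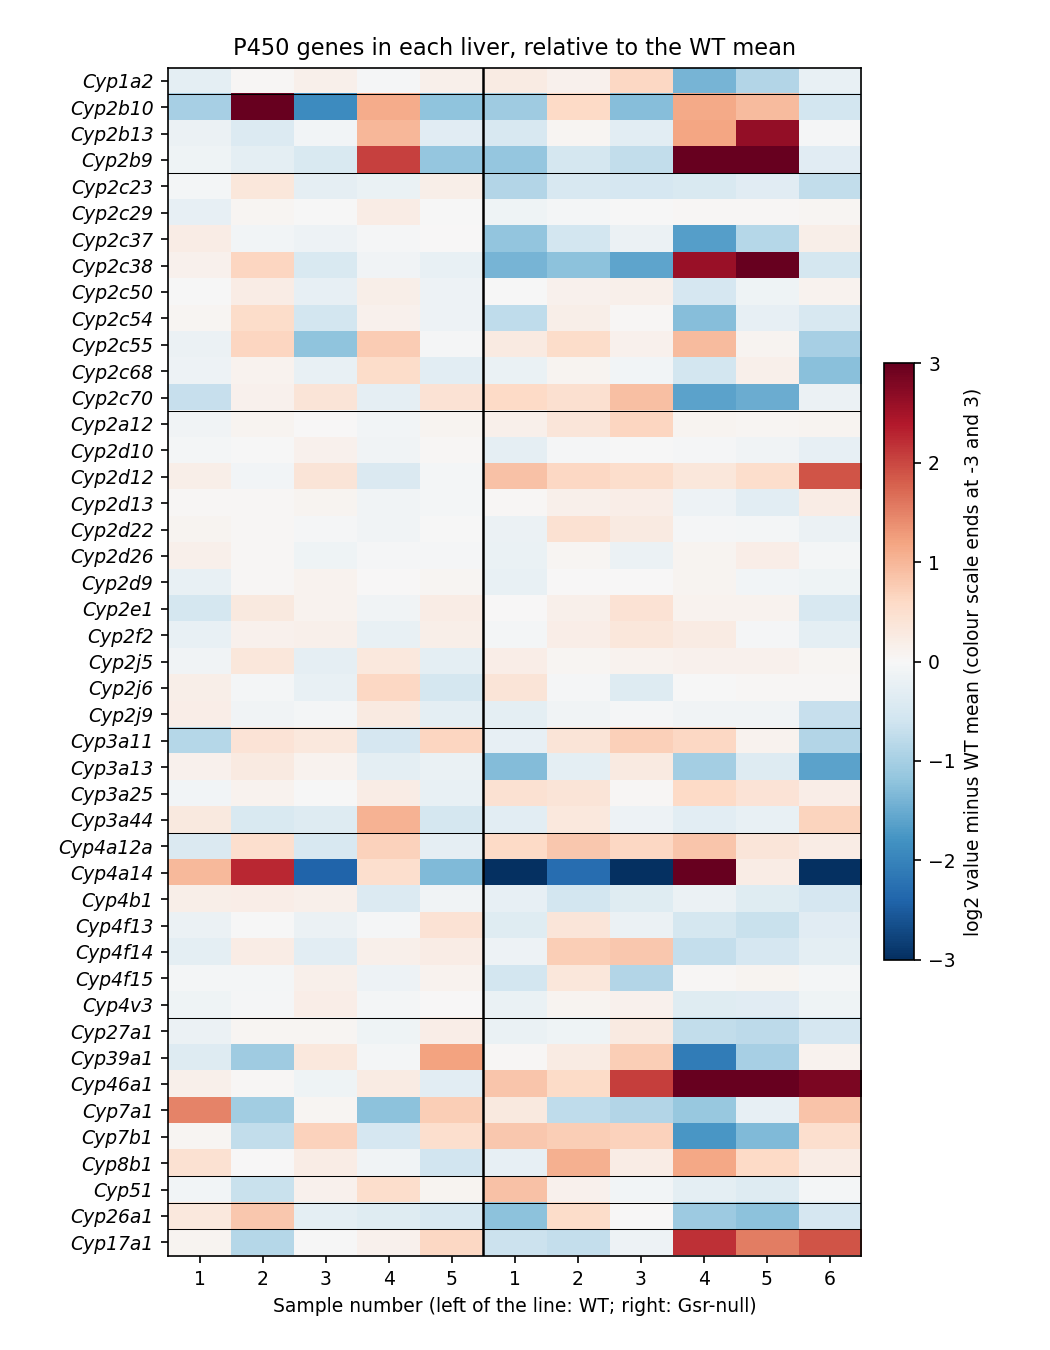
Log2 value minus the WT mean for the 45 P450 genes above 4 in at least 1 sample; columns are single livers, WT left and Gsr-null right of the line, and thin lines part the roles from family 1 at the top to steroid hormone synthesis at the bottom. Gsr-null samples 4 and 5 share the dark red of Cyp2b9, Cyp2c38 and Cyp46a1 and the blue of Cyp7b1, Cyp2c70 and Cyp1a2.

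Among family 1, Cyp1a2, the enzyme that clears caffeine and many aromatic amines in pericentral hepatocytes, was measured, while Cyp1a1 and Cyp1b1 stayed below 4 in all 11 samples. Cyp1a2 was 11.55, 11.88, 11.99, 11.80 and 12.00 in WT samples. Among Gsr-null samples it ran from 10.45 to 12.46 (median 11.80). The lowest values were those of samples 4 and 5, at 10.45 and 10.96, below every WT sample, while samples 1 and 3 lay above every WT sample. The difference was -0.25 (SE 0.311, limma adjusted p = 0.956) and 0.19 without samples 4 and 5. Ahr, whose product binds dioxin-like ligands, was 6.96 and 7.10 in samples 4 and 5 and between 7.60 and 8.71 in the others, and its part in this was not tested.

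The Cyp2b genes, which CAR induces with phenobarbital-like compounds, were uneven within both genotypes. Cyp2b10 was 3.66, 7.65, 2.77, 5.79 and 3.45 in WT samples and between 3.39 and 5.79 (median 4.69) in Gsr-null samples. Gsr-null samples 4 and 5 were highest in their group, at 5.79 and 5.62, followed by sample 2 at 5.26. WT sample 2 stood above all others, and the Gsr-null range lay inside that of WT. The difference was -0.04 (SE 0.817, limma adjusted p = 0.999), and 0.71 without WT sample 2. WT samples 2 and 4, of the low control set, were above the other WT samples, and the difference was -2.64 in the low and 1.88 in the high set. A second tested probe set of Cyp2b10 gave 0.03.

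Cyp2b9 was 2.81, 2.64, 2.48, 5.00 and 1.77 in WT samples. In Gsr-null samples 4 and 5 it was 9.97 and 9.37, and in the other 4 between 1.78 and 2.60. Cyp2b9 is transcribed mainly in female mouse liver, and these animals are labelled male. Cyp2b13, likewise known as female-biased, was 3.81 and 5.28 in samples 4 and 5, between 2.16 and 2.69 in the other Gsr-null samples, and 2.46, 2.23, 2.56, 3.62 and 2.29 in WT samples. WT sample 4 was the highest WT sample for both genes. Neither gene passed the filter for the test, and the groups overlapped. Cyp2b9 differed by 1.78 between the group means with samples 4 and 5 and by -0.70 without them, and Cyp2b13 by 0.51 and -0.19. Since the sequences of the pair are so alike near the start, cross-reaction of their probe sets was not tested; Cyp2b19, a skin epoxygenase, stayed below 4 in all samples.

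The Cyp2c genes, arrayed together on chromosome 19, make epoxides of arachidonic acid and hydroxylate drugs and steroids. Of 8 measured members 7 were lower on average in Gsr-null livers, with a median difference of -0.26, and 0 passed the adjusted p. Over all tested genes 42.7% of the differences were positive.

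Cyp2c23, an epoxygenase of arachidonic acid, was 11.57, 11.96, 11.34, 11.42 and 11.79 in WT samples and between 10.73 and 11.27 (median 11.12) in Gsr-null samples. Every Gsr-null sample lay below every WT sample, with the lowest values in samples 1 and 6. WT livers averaged 11.62 ± 0.259 (SD, n = 5), and livers without Gsr averaged 11.05 ± 0.20 (SD, n = 6). The difference of -0.57 (SE 0.145) corresponds to 0.673 of the WT level and gave a limma adjusted p of 0.173, with 6 of 6 Gsr-null samples on the lower side. It was -0.70 in the low and -0.47 in the high control set. Its probe set can bind several transcripts, so related genes may contribute to the value.

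Cyp2c37, which makes hydroxy fatty acids from arachidonic acid, was 11.63, 11.32, 11.25, 11.37 and 11.42 in WT samples. The Gsr-null samples spread from 9.74 to 11.58 (median 10.69), with sample 4 lowest and sample 6 within the WT range. The difference was -0.71 (SE 0.278, limma adjusted p = 0.487) and -0.44 without samples 4 and 5. Cyp2c29, an epoxygenase of arachidonic acid, was 12.27, 12.60, 12.51, 12.75 and 12.52 in WT and between 12.40 and 12.58 (median 12.54) in Gsr-null samples. Its groups overlapped, and its difference of -0.01 had a 95% interval from -0.24 to 0.22.

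Cyp2c70, which makes muricholic acids in mice, was 11.34, 12.16, 12.41, 11.75 and 12.46 in WT samples. Samples 4 and 5 were lowest of all, at 10.42 and 10.53, and the other Gsr-null samples lay between 11.86 and 12.93. The difference was -0.21 (SE 0.463, limma adjusted p = 0.988) over all samples and 0.46 without samples 4 and 5. Cyp2c38 went the other way, at 6.13 and 6.60 in samples 4 and 5. In the other Gsr-null samples it was between 1.96 and 3.02, below the WT values of 3.67, 4.19, 3.09, 3.43 and 3.32. The groups overlapped only because samples 4 and 5 lay above every WT sample and the other 4 lay below every one. Its difference was 0.16 with samples 4 and 5 and -1.18 without them, and it did not pass the filter. Cyp2c39, a retinoic acid hydroxylase, was 3.02 and 3.07 in samples 4 and 5, at most 2.44 in WT samples and below 4 throughout. Of the other measured members, Cyp2c50, Cyp2c54, Cyp2c55 and Cyp2c68, differences lay between -0.43 and 0.16.

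The other family 2 genes differed little between genotypes. All 11 measured members had a difference between -0.22 and 0.23, 7 of them positive, and 0 had an unadjusted limma p under 0.05. Cyp2e1, which oxidises ethanol and acetaminophen, was 12.83, 13.65, 13.48, 13.27 and 13.60 in WT samples and between 12.88 and 13.79 (median 13.47) in Gsr-null samples. The groups overlapped, with a difference of 0.05 and a 95% interval from -0.35 to 0.45. Cyp2f2, a periportal enzyme known for activating naphthalene, differed by 0.07 (95% interval -0.24 to 0.38).

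Cyp2a12, a steroid hydroxylase of the liver, was 11.88, 12.08, 12.00, 11.92 and 12.08 in WT samples and between 12.06 and 12.63 (median 12.11) in Gsr-null samples. It had the smallest p of this group, with overlapping groups and a difference of 0.23 (SE 0.124, limma adjusted p = 0.692). Gsr-null samples 2 and 3, whose arrays have a higher floor, were the highest, at 12.35 and 12.63. Cyp2d9, a male-biased testosterone 16-alpha-hydroxylase, was 12.73, 12.99, 13.05, 12.97 and 13.01 in WT and between 12.72 and 13.04 (median 12.91) in Gsr-null samples. The groups overlapped and the difference of -0.05 had a 95% interval from -0.28 to 0.17. Cyp2d12 passed 4 in 3 samples, all Gsr-null, and ran from 3.02 to 3.84 in WT and from 3.80 to 5.34 in Gsr-null samples. Among the remaining genes of the group, Cyp2d34, Cyp2g1, Cyp2j13 and Cyp2s1 stayed below 4 in every sample.

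The Cyp3a genes are induced by PXR and metabolise many drugs and steroids. Cyp3a13 and Cyp3a25 differed in opposite directions, and Cyp3a11, the main drug-metabolising member in mouse liver, lay between them. Cyp3a11 was 11.19, 12.44, 12.35, 11.53 and 12.68 in WT samples and between 11.15 and 12.75 (median 12.29) in Gsr-null samples. These ranges overlapped, with a difference of 0.11 (SE 0.333, limma adjusted p = 0.993).

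Cyp3a13 was 9.90, 10.04, 9.88, 9.48 and 9.57 in WT samples and between 8.16 and 10.04 (median 9.06) in Gsr-null samples. Samples 6, 1 and 4 were lowest, at 8.16, 8.47 and 8.75, and sample 3 was level with the highest WT sample, so the groups overlapped. The difference was -0.72 (SE 0.298, limma adjusted p = 0.513). Samples 1 and 6, the 2 lowest of all 11 in Cyp3a13 and in Cyp2c23, were also those with the highest Lcn2; the part of the acute phase in these values was not tested. The same pair was lowest in 5 of the 44 P450 genes above 4 in at least 2 samples (11.4%), beside 6.91% of all such genes, the others being Cyp2d10, Cyp2d22 and Cyp2j9. In a second tested probe set of Cyp2d22, samples 1 and 6 lay inside the WT range, at 9.20 and 9.25. The pair was singled out after the values were seen.

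Cyp3a25, a testosterone-hydroxylating member, was 12.43, 12.62, 12.49, 12.74 and 12.29 in WT samples and between 12.55 and 13.12 (median 12.91) in Gsr-null samples. Sample 4 was highest, and samples 3 and 6, at 12.55 and 12.72, lay inside the WT range. The difference was 0.35 (SE 0.129, limma adjusted p = 0.453). Cyp3a44, known as female-biased, passed 4 in 4 samples and differed by 0.00 between the group means. In contrast to Cyp2b9, it was not raised in samples 4 and 5, at 3.81 and 3.91, where the remaining samples without Gsr ran from 3.83 to 4.80.

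**Figure D3:**
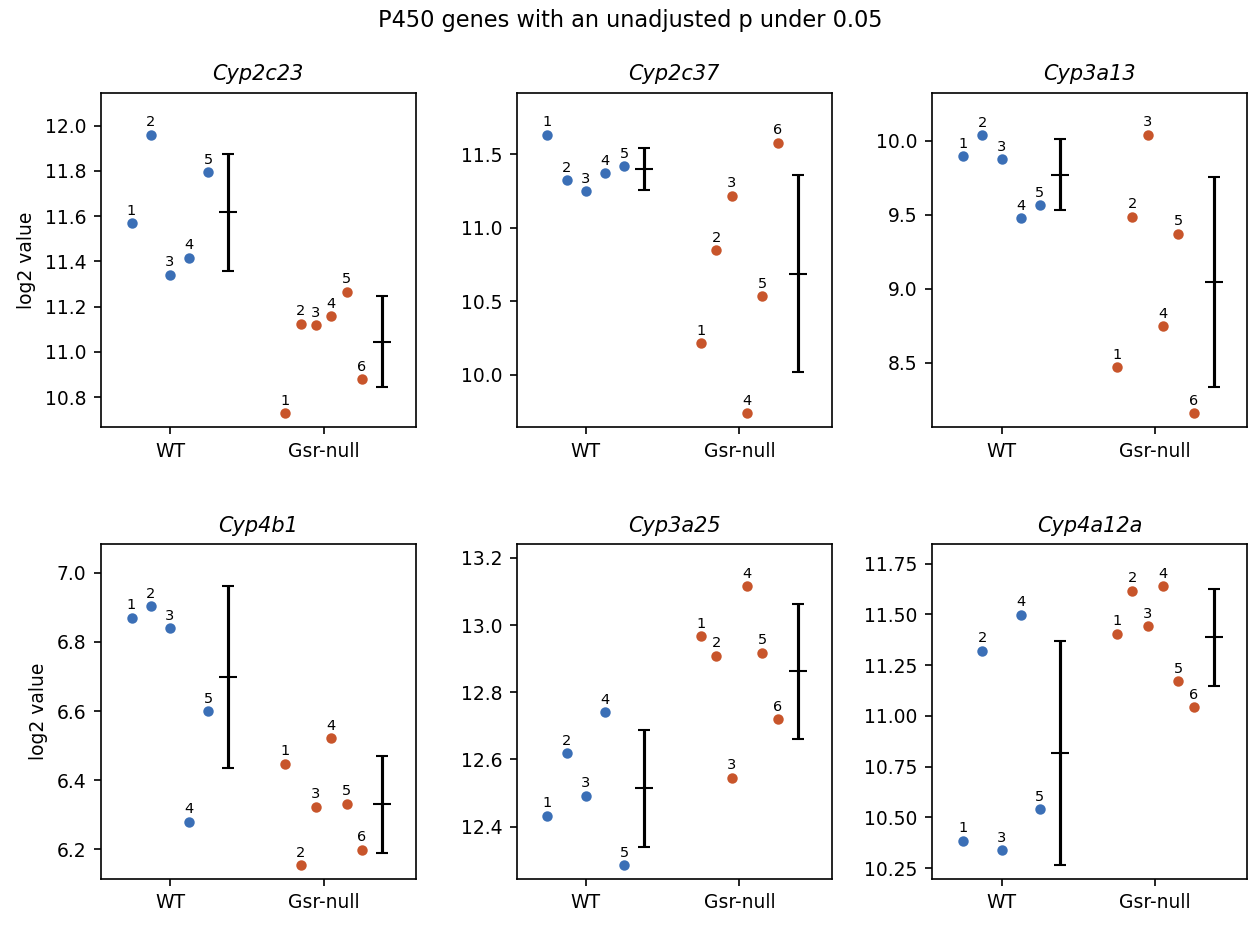
Log2 values of the 6 measured P450 genes with an unadjusted limma p under 0.05; points are single livers with their sample number, and bars the mean ± SD (WT n = 5, Gsr-null n = 6), with a separate axis for each gene. The genotypes are parted without overlap for Cyp2c23, from 11.27 to 11.34, and overlap in the other 5 panels.

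Family 4 enzymes hydroxylate fatty acids at or near the omega end. Of 7 measured members 6 were lower on average, with a median difference of -0.17, and 0 passed the adjusted p. Of all tested genes 42.7% were higher. Cyp4b1, which hydroxylates short fatty acids and is known mainly from lung, was 6.87, 6.90, 6.84, 6.28 and 6.60 in WT samples and between 6.16 and 6.52 (median 6.33) in Gsr-null samples. The groups overlapped through WT sample 4 alone, which lay below 4 Gsr-null samples. The difference was -0.37 (SE 0.135, limma adjusted p = 0.443). Cyp4a12a, the male-biased omega-hydroxylase that makes 20-HETE, was 10.38, 11.32, 10.34, 11.50 and 10.54 in WT and between 11.04 and 11.64 (median 11.42) in Gsr-null samples. Its WT samples fell into a lower group of 3 (samples 1, 3 and 5) and a higher group of 2 (samples 2 and 4), and the higher pair lay inside the Gsr-null range. That split followed the control sets. The difference was 0.57 (SE 0.228, limma adjusted p = 0.501) over all samples, 0.08 in the low set, which holds WT 2 and 4, and 0.86 in the high set.

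Cyp4a14, the omega-hydroxylase that PPAR-alpha induces in fasting, varied widely within both genotypes. It was 8.14, 9.42, 4.76, 7.66 and 5.85 in WT samples. In Gsr-null samples 1 to 6 it was 2.55, 4.87, 2.00, 10.95, 7.39 and 3.49. Samples 1, 3 and 6 lay below every WT sample and sample 4 above every one. The difference was -1.96 (SE 1.48, limma adjusted p = 0.867), with a 95% interval from -5.17 to 1.25, and was -3.94 without samples 4 and 5. It was -5.40 in the low and 1.03 in the high control set.

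Other PPAR-alpha targets were read from a list of 21 genes, 19 of them on the array. Of 16 measured members, 0 passed the adjusted p and 1, Vnn1, had an unadjusted p under 0.05. Their median difference was -0.16, beside -0.03 over all tested genes. For most of the measured members, but not all, samples 4 and 5 were the highest Gsr-null samples. This held for Vnn1, Acot1, Acot3, Ehhadh, Acaa1b, Cpt2, Acadm, Acadl, Plin2, Hadha and Slc25a20. Sample 6 was highest among Gsr-null samples for Cpt1a, Hadhb, Angptl4 and Fabp1, and sample 2 for Creb3l3. Acot1, a peroxisome proliferator-induced acyl-CoA thioesterase, ran from 7.26 to 9.15 in WT samples and from 3.39 to 8.81 (median 6.62) in Gsr-null samples. Gsr-null samples 4 and 5 were highest in their group, as for Cyp4a14, at 8.55 and 8.81, inside the WT range. The other Gsr-null samples, from 3.39 to 6.70, lay below every WT sample, so the groups overlapped through samples 4 and 5 alone. The difference was -1.44 (SE 0.818, limma adjusted p = 0.731) and -2.47 without samples 4 and 5. Vnn1, the pantetheinase, lay between 3.15 and 4.26 in samples 1, 2, 3 and 6 and inside or above the WT range in samples 4 and 5. It did not pass over all samples (-3.43, SE 1.27, limma adjusted p = 0.448). The difference was -5.80 in the low and -1.14 in the high control set. It was -5.48 without samples 4 and 5, which is given with no test because these samples were set aside after such values were seen. Ppara itself, the receptor, differed by -0.12 (limma adjusted p = 0.990).

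**Figure D4:**
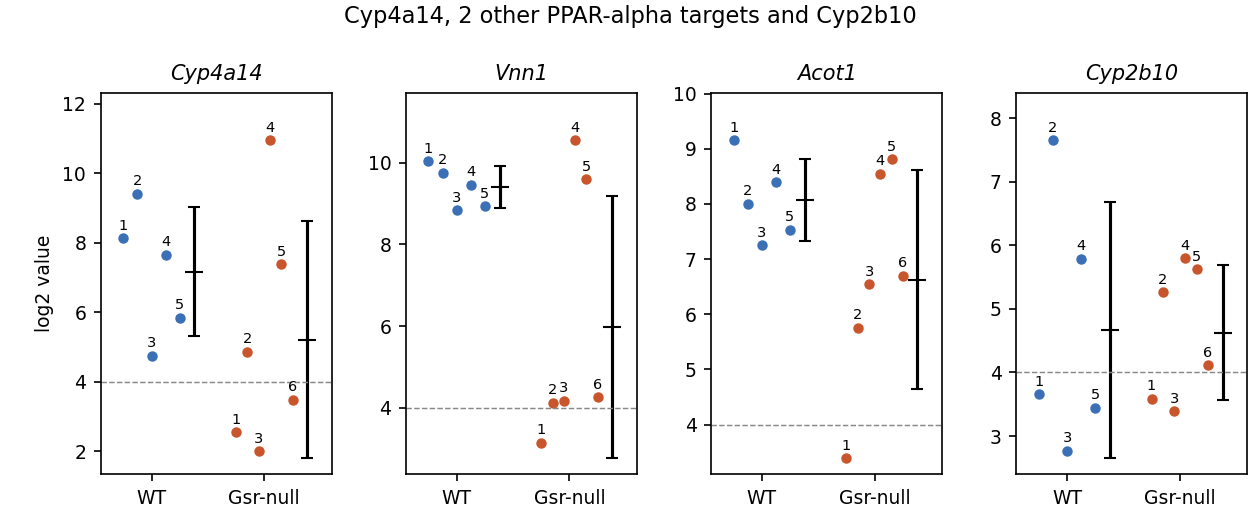
Log2 values of Cyp4a14, of the PPAR-alpha targets Vnn1 and Acot1 and of Cyp2b10 in single livers, numbered by sample; bars are the mean ± SD (WT n = 5, Gsr-null n = 6) and the dashed line is the filter level of 4. In Cyp4a14, Vnn1 and Acot1 the Gsr-null samples 4 and 5 lie at the WT values or above, and Gsr-null samples 1, 3 and 6 lie below every WT sample.

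The remaining measured family 4 genes, Cyp4f13, Cyp4f14, Cyp4f15 and Cyp4v3, differed by -0.29 to -0.02. Cyp4v3, a fatty acid hydroxylase whose human counterpart is mutated in a corneoretinal dystrophy, was 11.54, 11.63, 11.85, 11.61 and 11.67 in WT and between 11.29 and 11.79 (median 11.50) in Gsr-null samples. The groups overlapped and the difference was -0.14 (SE 0.123, limma adjusted p = 0.915). Cyp4a31, Cyp4f16 and Cyp4f18 stayed below 4 in every sample.

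Bile acid and oxysterol genes gave 5 measured members of 6. Cyp7a1, the rate-limiting enzyme of the classical pathway, was 10.34, 7.83, 8.92, 7.64 and 9.59 in WT and between 7.74 and 9.73 (median 8.36) in Gsr-null samples. Its WT samples spread more widely than its Gsr-null samples, and the Gsr-null range lay inside that of WT. The difference was -0.31 (SE 0.505, limma adjusted p = 0.975). A second tested probe set of Cyp7a1 gave -0.27 and spread more widely in Gsr-null samples. It ran from 4.44 to 5.42 in WT and from 3.71 to 5.73 in Gsr-null samples, with samples 4 and 5 lowest. Cyp8b1, the 12-alpha-hydroxylase that makes cholic acid, was 10.96, 10.52, 10.74, 10.42 and 9.93 in WT and between 10.28 and 11.67 (median 10.93) in Gsr-null samples. It overlapped between groups and had the smallest p of this group, with a difference of 0.51 (SE 0.263, limma adjusted p = 0.679).

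Cyp7b1, the male-biased oxysterol 7-alpha-hydroxylase, was 12.27, 11.49, 12.90, 11.72 and 12.72 in WT samples. Gsr-null samples 4 and 5 were lowest of all, at 10.47 and 10.89, and the other 4 lay between 12.72 and 13.04. The difference was -0.06 (SE 0.507, limma adjusted p = 0.999) over all samples and 0.69 without samples 4 and 5. WT samples 2 and 4, of the low control set, lay below the other WT samples, and the difference was 1.37 in the low and -1.27 in the high set. Cyp27a1, the mitochondrial sterol 27-hydroxylase, was 11.15, 11.39, 11.38, 11.20 and 11.52 in WT samples and 10.60 and 10.55 in samples 4 and 5. The other Gsr-null samples, from 10.82 to 11.60, overlapped WT, and the difference was -0.35 (SE 0.184, limma adjusted p = 0.692), or -0.14 without samples 4 and 5. Cyp39a1, an oxysterol 7-alpha-hydroxylase known as female-biased, was 5.92, 5.25, 6.61, 6.24 and 7.50 in WT samples, with 4.20 and 5.32 in samples 4 and 5. Gsr-null samples 1, 2, 3 and 6 ran from 6.33 to 7.04, so the groups overlapped, with a difference of -0.33 (SE 0.503, limma adjusted p = 0.970), or 0.28 without samples 4 and 5.

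Cyp46a1, the cholesterol 24-hydroxylase known from neurons, did not pass the filter, and its groups did not overlap. It was 2.73, 2.61, 2.44, 2.83 and 2.26 in WT samples. In Gsr-null samples 1 to 6 it was 3.40, 3.14, 4.66, 6.58, 7.17 and 5.41. All 6 lay above every WT sample, and 4 of the 6 lay above 4. Without a filter the difference was 2.48 (SE 0.651, limma adjusted p = 0.305). Since every WT value is below 4, near the floor of the array, the fold is not well determined; it was 1.58 without samples 4 and 5. Cyp51, the lanosterol demethylase of cholesterol synthesis, was 9.17, 8.57, 9.39, 9.79 and 9.33 in WT and between 8.85 and 10.14 (median 9.19) in Gsr-null samples, with a difference of 0.03 (SE 0.249) and overlapping groups.

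P450 genes of steroid hormones, vitamin D and retinoids were mostly below 4. Cyp11a1, Cyp11b2 and Cyp21a1 of adrenal steroid synthesis, and Cyp24a1 and Cyp27b1 of vitamin D metabolism, stayed below 4 in all 11 samples. Cyp17a1, the 17-alpha-hydroxylase, passed 4 in Gsr-null samples 4, 5 and 6, at 5.55, 4.89 and 5.25. It was 2.65 to 3.20 in the other Gsr-null samples and 3.44, 2.50, 3.35, 3.49 and 3.97 in WT samples, so the groups overlapped. The 4 adrenal markers on the array, Star, Hsd3b1, Nr5a1 and Mc2r, were at most 2.76 in any sample. Cyp26a1, the retinoic acid hydroxylase, was 4.45, 4.97, 3.87, 3.79 and 3.67 in WT samples, with 4.70 and 4.16 in Gsr-null samples 2 and 3. The other Gsr-null samples lay between 2.92 and 3.65, below every WT sample, while samples 2 and 3 lay inside the WT range. The difference was -0.58 without a filter (limma adjusted p = 0.762).

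Read by sample, Gsr-null livers 4 and 5 stood together mainly at the low end. They were the 2 lowest of 11 in 8 of the 44 P450 genes above 4 in at least 2 samples (18.2%), beside 181 of 6410 genes in all (2.82%). The 8 were Cyp1a2, Cyp27a1, Cyp2c70, Cyp2d13, Cyp4f13, Cyp4f14, Cyp4v3 and Cyp7b1. Second tested probe sets of Cyp4v3 and Cyp7b1 had the same 2 lowest samples. In that of Cyp2d13, sample 6 was lowest, at 4.54, beside 4.56 and 4.55 in samples 4 and 5. Livers 4 and 5 were the 2 highest in 3 of the 44, Cyp2b9, Cyp2c38 and Cyp46a1 (6.82%), beside 554 of all genes (8.64%). The high side was thus no more frequent than in all genes. Cyp2b9 and Cyp2c38 passed the level of 4 largely through these samples. This pair was singled out after the values were seen, and no test is given. The pattern did not cover all sex-biased P450 genes: of the male-biased ones Cyp7b1 was low in both samples, while Cyp2d9 at 13.04 and 12.86 and Cyp4a12a at 11.64 and 11.17 lay inside the WT ranges or above. Of female-biased ones Cyp2b9, Cyp2b13 and Cyp17a1 were high in both, while Cyp3a44 was not and Cyp39a1 was low. Cyp4a14, also listed as female-biased, lay above every WT sample in sample 4 and inside the WT range in sample 5. The female-biased Cyp2c39 was highest of all in both, and Cyp3a16 was not raised in either. Cyp2c39 and Cyp3a16 stayed below 4 in every sample. Of 8 stellate cell and fibroblast markers, the collagens Col1a1 and Col3a1 were also highest in these livers, at 3.95 and 3.87 and at 9.07 and 8.81. Col1a2 was 6.76 and 5.85, with 5.93 in Gsr-null sample 1, whereas Dcn at 10.15 and 9.94 was not raised and Lrat, at most 1.68, was lowest. The mean over the 8 ran from 5.16 to 5.45 in WT and from 5.05 to 5.93 in Gsr-null samples, and its part in these values was not tested.

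**Figure D5:**
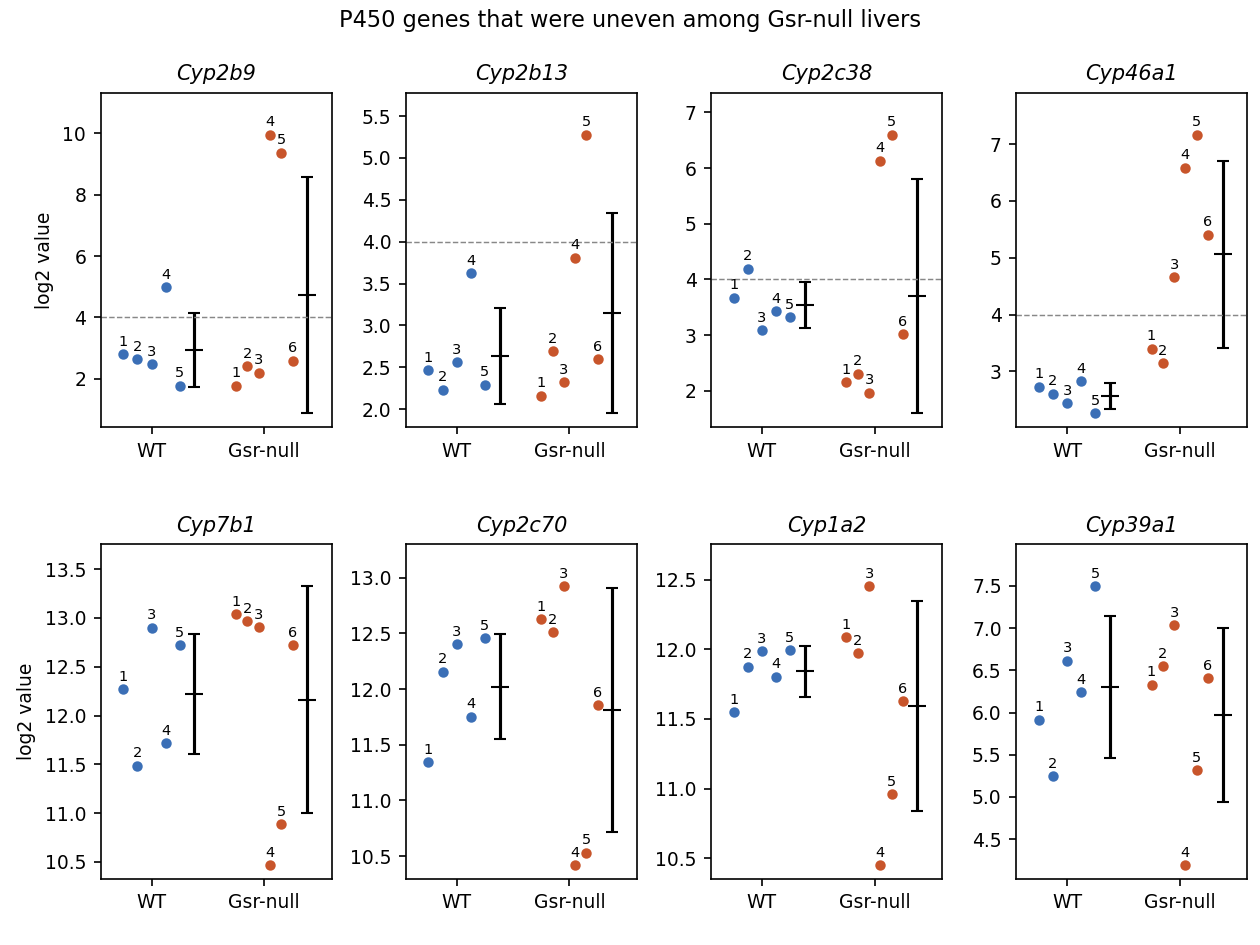
Log2 values of 8 P450 genes that were uneven among Gsr-null livers, chosen after the values were seen; points are single livers with their sample number, bars the mean ± SD (WT n = 5, Gsr-null n = 6), and the dashed line the filter level of 4 where it falls in the panel. Gsr-null samples 4 and 5 lie at the top in the upper row, at 9.97 and 9.37 for Cyp2b9, and at or near the bottom in the lower row.

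Within a genotype, the typical spread of the P450 genes was near that of all genes, and a few genes spread widely. The SD was larger in Gsr-null than in WT samples for 25 of the 37 measured genes (67.6%), beside 62.9% of all tested genes. The median SD was 0.259 in WT and 0.355 in Gsr-null samples, beside 0.248 and 0.292 over all tested genes. A range over 2 among Gsr-null samples was seen in 6 of 37 P450 genes (16.2%), beside 5.18% of all tested genes, and among WT samples in 4 of 37 (10.8%), beside 1.61%.

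Genes that serve the P450 enzymes were read from lists of the same fit. Of 11 listed electron carriers 7 had a probe set with exactly 1 symbol, and all 7 were measured. Por, the gene of P450 reductase, had no such probe set and was not assessed. Of the 7, 0 passed the adjusted p, and the exception at an unadjusted p under 0.05 was Cyb5r1, a cytochrome b5 reductase. It was 5.19, 4.42, 5.24, 4.37 and 5.39 in WT and between 3.66 and 4.59 (median 4.25) in Gsr-null samples, overlapping through WT samples 2 and 4, with a difference of -0.74 (SE 0.231, limma adjusted p = 0.319). Its WT split again followed the control sets: the difference was -0.25 in the low and -1.05 in the high set.

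Of 11 measured genes of heme synthesis and breakdown 0 passed the adjusted p. Alas1, the rate-limiting enzyme of heme synthesis, was 11.81, 10.23, 10.46, 10.46 and 11.61 in WT and 8.50, 8.24, 9.96, 11.33, 11.71 and 10.15 in Gsr-null samples 1 to 6. Samples 1, 2, 3 and 6 lay below every WT sample, and samples 4 and 5 inside the WT range, so the groups overlapped. The difference was -0.93 (SE 0.613, limma adjusted p = 0.809), and -1.70 without samples 4 and 5. Alad, the next enzyme of the pathway, was 9.48, 9.70, 9.78, 9.68 and 9.90 in WT and between 9.54 and 10.60 (median 10.48) in Gsr-null samples. All Gsr-null samples but sample 6 lay above every WT sample, and the difference was 0.57 (SE 0.191, limma adjusted p = 0.366).

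Among 19 measured receptors and factors that control hepatic P450 genes 0 passed the adjusted p. Lower on average were 15 of the 19, where 42.7% of all tested genes were higher. Onecut1, a liver-enriched homeobox factor that acts on P450 promoters, was 5.19, 5.59, 3.90, 4.67 and 5.40 in WT and between 3.57 and 5.07 (median 3.76) in Gsr-null samples. It overlapped between groups, with a difference of -0.89 (SE 0.344, limma adjusted p = 0.484). Nr1i3, which encodes CAR, differed by 0.19 (SE 0.333, limma adjusted p = 0.979). Dbp, a clock-driven activator of P450 genes, had 5.79 and 4.40 as its lowest values, in Gsr-null samples 2 and 3, and lay between 10.50 and 11.17 in all others. Its groups did not overlap, yet the spread left a limma adjusted p of 0.686. Both measured epoxide hydrolases, which open the epoxides that P450 enzymes form, differed little: Ephx1 by 0.09 (SE 0.214) and Ephx2, the soluble enzyme, by -0.18 (SE 0.117, limma adjusted p = 0.823).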

How the data were processed

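Liver RNA of 11 mice was hybridised to Affymetrix arrays. Per the submitters' processing notes, values were made with GCRMA, which corrects background by probe sequence. The authors' deposited values are on a scale read as log2 from their range. Array version, filters and batches are not given in the sources used here.

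Of 22690 probe sets, 64 controls were left out. The 9560 above 4 in at least 5 samples were fitted with limma 3.58.1 (lmFit and eBayes) in R 4.3.3, with Benjamini-Hochberg adjustment over all of them and calls at an adjusted p under 0.05. The number of arrays limits the precision. Each limma p-value sets the genotype difference against the spread between samples within the groups, moderated across probe sets. On simulated data for Gsr-null against WT with 9560 probe sets, the fit recovered 66% of changes of 1 and 95% of changes of 2 on the log2 scale, and 4.73% of its calls were not planted.

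The P450 genes and all lists were chosen with earlier results of these data known. Named genes are Gsr, measured P450 genes with no overlap or an unadjusted p under 0.05, those with the highest mean or smallest p in their role, those with 1 sample far from its group, and the smallest p of each pathway list with Alas1. Chosen after their values were seen were Cyp17a1, Cyp26a1, Cyp27a1, Cyp2b9, Cyp2c38, Cyp2c39, Cyp2c70, Cyp39a1, Cyp46a1 and Cyp4a14, along with the other genes given with values but outside this rule. No probe set with several symbols was used, which left out 4 with a P450 symbol; 6 measured P450 genes rest on probe sets that can bind several transcripts. Symbols of all 63 were found in RefSeq (GRCm38.p6). Promoters were aligned with Biopython 1.88, and 46 of 63 genes had one. Figures were drawn with matplotlib 3.10.9. Gsr-null and WT samples with the same replicate number did not deviate together, so the numbers were not used as pairs.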

Additional observations from a re-analysis of the deposited data

Results flagged for a closer look

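Single samples stood far from the rest of their group in 8 of 126 sets of P450 values, 1 for each gene and genotype, where chance alone gives about 6.3 at 1 in 20. Of genes above the filter, Cyp2d9, the male-biased testosterone hydroxylase, was 12.7 in WT sample 1 against 13.0 in the other WT samples, and Cyp4f13 was 6.36 in WT sample 5 against 5.75 to 5.91. The others were below the filter, above 4 in at most 4 samples. Cyp2d12 was 5.34 in Gsr-null sample 6 against 3.8 to 4.33, and Cyp2b13 was 3.62 in WT sample 4 against 2.23 to 2.56. Cyp21a1 was 3.23 in Gsr-null sample 3 against 2.57 to 2.69. Cyp1b1 was 1.51 in WT sample 3 against 2.01 to 2.16, Cyp2j13 was 1.58 in WT sample 4 against 1.94 to 2.01, and Cyp2s1 was 2.2 in WT sample 1 against 1.82 to 1.91.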

How the results depend on the processing

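No P450 gene was called under any of the 24 alternatives. Among the 17 measured P450 genes named by the rule, the smallest limma adjusted p was 0.132, for Cyp2c23 with the trend and robust options. Cyp4a14, chosen after its values were seen, is outside these 17. It had a limma adjusted p of 0.106 without Gsr-null 4 and 5, which were also set aside after such values were seen. Of 403 differences of the 17 genes, 378 kept the direction, and 11 of the 17 genes kept it throughout. P450 genes at an unadjusted limma p under 0.05 numbered 6 (16.2%), beside 8.79% of all tested genes, a share given for the main fit only. Without a filter they numbered 10, adding Cyp46a1, Cyp2d12, Cyp2j13 and Cyp11a1, which had not passed it. Of these, Cyp2j13 and Cyp11a1 stayed below 4 in every sample. There were 4 to 7 when 1 sample was left out. Cyp2c23 and Cyp4b1 kept such a p in each of these fits. Cyp2c37 lost it without WT 1 or Gsr-null 1 (p up to 0.0560), Cyp3a25 without WT 5 (0.0529), Cyp3a13 without WT 1, 2 or 3 or Gsr-null 1, 4 or 6 (up to 0.0695), and Cyp4a12a without WT 1, 3 or 5 or Gsr-null 2 or 4 (up to 0.0790). The median P450 difference of -0.05 was 0.029 without a filter, which takes in the 26 genes below the filter, and -0.163 to -0.020 when 1 sample was left out, the lowest without Gsr-null 2.

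Over all genes, 16 probe sets were called higher and 21 lower. With a filter at 6 these were 7 and 7, without Gsr-null 2 and 3 they were 6 and 4, and without Gsr-null 4 and 5, chosen after seeing the data, 25 and 38. Leaving out 1 sample gave 9 to 24 higher and 5 to 19 lower, with the fewest without WT 5. The replicate number as a block gave 2 higher and 1 lower, and for P450 genes 0 called, 5 at an unadjusted p under 0.05 and a median of -0.07. The deviations of same-numbered samples correlated between -0.243 and 0.036, and 0 of 5 correlated best with its own number, so the numbers do not pair the samples. The arrays' floor limits what can be read for the 18 P450 genes that never passed 4, and in part for the 8 that did so in 1 to 4 samples.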

Other observations

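Gsr-null livers 4 and 5, which stood apart in several P450 genes, did so in other genes as well, chosen here after their values were seen. Hsd3b5, a male-biased steroid dehydrogenase of mouse liver, was 6.52 and 7.74 in these samples and between 11.11 and 11.95 in the other 9. C6, the complement component, was 6.95 and 7.72 against 9.43 to 10.53, and Slco1a1, an organic anion transporter, was 8.18 and 8.30 against 9.10 to 10.56. Susd4 was 4.74 and 5.25 against 5.95 to 7.98. Of the same list of 7 male-biased genes, Egfr at 8.09 and 8.37 and Elovl3 at 8.37 and 8.13 lay inside the range of the other samples, and Mup3, a major urinary protein was not lowered in both, at 12.71 and 13.23 against 13.04 to 13.57. The female-biased Hao2 was 6.23 and 3.51 against 1.63 to 2.64, and Acot3 7.43 and 7.64 against 1.93 to 6.15, while Sult3a1, likewise female-biased, was 1.74 and 2.27 and highest in WT sample 4, at 4.30.

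In the same 2 livers 6 genes of lipid droplets, lipid uptake and transport, picked after their values were seen, were highest; these livers were the 2 highest in 8.64% of all genes above 4 in at least 2 samples. Cidec and Cidea, proteins that enlarge lipid droplets, were 8.46 and 8.04, and 8.74 and 8.04, and at most 3.17 and 3.55 in all other samples. Mogat1, a monoacylglycerol acyltransferase, was 7.31 and 5.79 against at most 4.06. Cd36, the fatty acid translocase, was 10.50 and 10.26 against 6.64 to 9.06, and Plin2, the lipid droplet coat protein, was 12.56 and 12.17 against 10.40 to 11.70. Apoa4, a lipoprotein component, was 13.12 and 13.04 against 8.83 to 11.21.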
